A study of Mus musculus with 14 samples.

Results

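The SOCS family holds the feedback inhibitors of cytokine signaling, and its 8 genes, Cish and Socs1 to Socs7, were followed here in mouse regulatory T cells (Tregs), the FOXP3-expressing CD4+ T cells that restrain immune responses. The members were taken by gene name, 8 of 48363 genes with values, and all 8 passed the filter of at least 10 normalized counts in at least 2 libraries that left 16241 genes tested. Tregs had been sorted from pooled spleen and inguinal, axillary and brachial lymph nodes of untreated mice, and RNA was sequenced in 14 libraries. The 5 miR-15/16 cKO libraries came from fl/fl mice, in which loxP sites flank both miR-15/16 clusters and Cre is expressed from the Foxp3 locus itself (Foxp3-Cre). The 4 WT libraries came from wt/wt mice with the same Foxp3-Cre allele. The 2 CD25lo and 3 CD25hi libraries held Tregs of that WT genotype, sorted on low or high surface CD25. All 4 groups therefore carried the Foxp3-driven Cre with its YFP reporter, and the deletion in cKO cells could begin only once Foxp3 was expressed. The labels give no age or sex for any library. Spleen and nodes were pooled, and in such bulk samples fewer cells of a type and less RNA per cell cannot be told apart.

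SOCS proteins carry an SH2 domain, which binds phosphorylated tyrosines on cytokine receptors or on JAK kinases, and a SOCS box, which recruits elongins B and C and cullin 5 into a ubiquitin ligase. CIS (the product of Cish), SOCS1, SOCS2 and SOCS3 are classically induced by the STAT factors that cytokines activate, so they close a negative feedback loop. In T cells, interleukin-2 acts through a receptor of CD25 (Il2ra), Il2rb and Il2rg chains, and through STAT5, which induces Cish, Socs2 and Il2ra itself. SOCS4 to SOCS7 are less tied to cytokines and are better known for growth factor and insulin receptor signaling.

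Of the miRNAs deleted in the cKO group, the mature sequences from RefSeq (GRCm38.p6) are shown because all carry the same seed, bases 2 to 8, in capitals, which pairs with the sites described next.
miR-15a-5p: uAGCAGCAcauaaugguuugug
miR-15b-5p: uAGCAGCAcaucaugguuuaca
miR-16-5p: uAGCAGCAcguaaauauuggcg
The seed AGCAGCA pairs with TGCTGCT, and a match on the sense strand of the longest annotated 3′ untranslated region was either that 7-mer or GCTGCTA, in which an A closes the site. An 8-mer holds both. Of the 8 members, 3 had at least 1 match, against 27.6% of 12797 tested genes with such a region. Socs1 and Socs5 had 2 matches each and Socs6 had 1, an 8-mer. Cish, Socs2, Socs3, Socs4 and Socs7 had none, in regions of 2251, 1166, 1477, 5185 and 5187 bases, against a median of 1136 bases over the tested genes. The 4 matches of Socs1 and Socs5 are shown with 8 bases on either side and the match in capitals, because the seed of the deleted miRNAs could pair with them.
Socs1, first match (chr16:10783177-10783199, minus strand): ggcctgggTGCTGCTggtggctt
Socs1, second match (chr16:10782763-10782785, minus strand): tctccccaTGCTGCTtttcagtc
Socs5, first match (chr17:87135309-87135331, plus strand): ggcagtcaGCTGCTAggatttcc
Socs5, second match (chr17:87137809-87137831, plus strand): tggaggggTGCTGCTgagtttcc
Coordinates are on GRCm38. Both Socs1 matches and the second Socs5 match lie in the GENCODE annotation but outside the gene spans of the deposited table. A match is a description of letters and not evidence of binding.

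Promoters of 300 bases (250 before to 50 after the annotated start, RefSeq, GRCm38.p6) were at hand for 4 of the 8 members. The motif TTCNNNGAA, the palindrome to which STAT dimers bind and which reads alike on both strands, was present in 8.3% of 32851 such promoters, and 0.457% held 2 or more. Cish held 2, separated by 2 bases, which begin at 0 and 11 bases from its start and so do not lie before it. Socs3 held 1, at -154 from its start, while the windows of Socs1 and Socs4 held none. The windows of Cish and Socs3 are shown, with the motif in capitals, because they held it. Both lie inside the gene spans of the deposited table. Socs1 is also classically STAT-induced, as is Socs2, for which no promoter was at hand.
Cish (chr9:107296655-107296682, plus strand): agttTTCCTGGAAagTTCTTGGAAatct
Socs3 (chr11:117969504-117969528, minus strand): aaccagccTTCTTAGAAgggagggg

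The libraries held 30055573 to 35226685 reads in genes. All 13 Treg markers examined, Foxp3 among them, were detected in every group. Il2ra averaged 15512 normalized counts in cKO, 26037 in WT, 14854 in CD25lo and 40165 in CD25hi Tregs, in the order of the sort for the last 2 groups, while Foxp3 averaged 18565 in cKO, 19541 in WT, 15422 in CD25lo and 22851 in CD25hi Tregs. The 4 hairpin genes of the deleted miRNAs were at 0 in all 14 libraries and so check no label. Dleu2, the host transcript of miR-15a and miR-16-1, had 2121 to 2713 normalized counts in the 5 cKO libraries, against 86.3 to 1099.7 in the 4 WT libraries. Some libraries differed in ways the groups do not explain. By Xist against the Y-linked Ddx3y, all 5 cKO libraries and 1 WT library (replicate 3) read as female and the other 8 as male, so sex and genotype are nearly confounded, whereas the methods describe animals matched for sex. A handling level, the average log2 value of 24 immediate early and stress genes that respond to cell handling, was 12.62 to 13.89 in cKO and 13.70 to 13.92 in 3 WT libraries, but 11.97 in WT replicate 4, close to the 11.87 to 12.35 of CD25lo and the 11.75 to 11.97 of CD25hi Tregs. The summed level of 12 myeloid markers also varied, at 915 to 3857 in cKO, 1109 to 5636 in WT, 668 to 1452 in CD25lo and 401 to 829 in CD25hi Tregs; its part in the results below was not tested.

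Levels can be compared between members only per length, here as normalized counts per kilobase of exon within the gene span of the table. In cKO Tregs Socs3 stood highest at 2306 ± 270.2, followed by Socs1 at 1356 ± 64.4 and Cish at 1194 ± 125 (SD, n = 5). Socs4 at 321 ± 17.5, Socs7 at 273 ± 24.7 and Socs5 at 221 ± 28.2 formed a middle range, and Socs2 at 64.1 ± 5.6 and Socs6 at 46.8 ± 5.2 were lowest. In this order the ranges over libraries of Socs1 and Cish overlapped, as did those of Socs4 and Socs7 and those of Socs7 and Socs5. All members were measured in the same libraries, and the order of neighbours within each library was not compared.
Socs3 was first and Socs6 last in every group. Socs2 ranked 7 of 8 in cKO and CD25lo Tregs, whereas it ranked 6 in WT Tregs at 174 ± 28.3 (n = 4) and 5 in CD25hi Tregs at 257 ± 36.5 (n = 3). These levels depend on the gene model: with the longest transcript as the length, only 4 of 8 members kept their rank in cKO Tregs, and with all exons of the newer annotation Socs1 had 625 per kilobase and ranked below Cish.

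**Figure D1:**
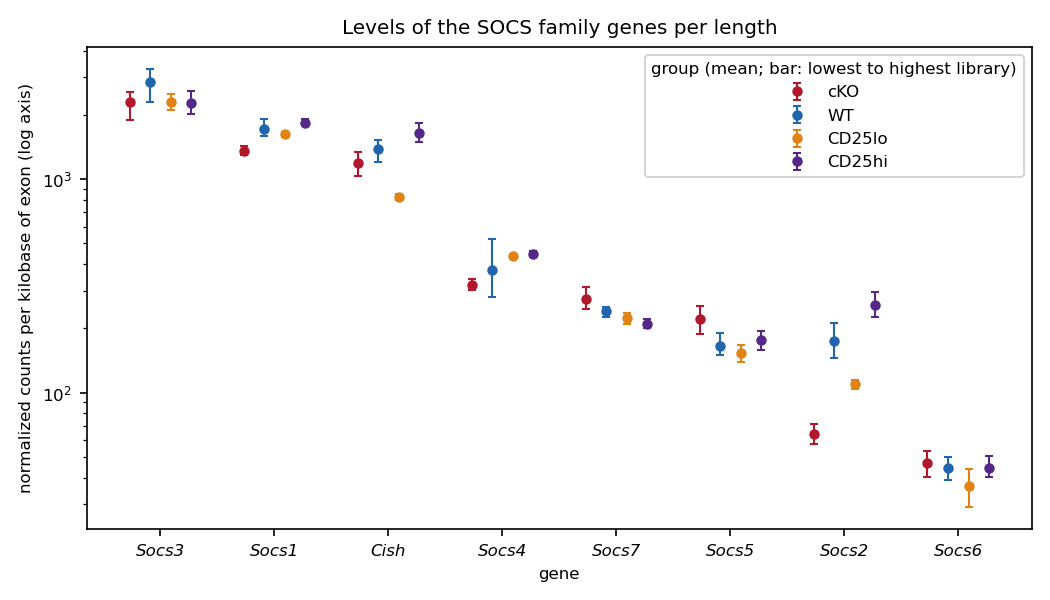
Mean normalized counts per kilobase of exon (log axis) of the 8 SOCS genes in cKO, WT, CD25lo and CD25hi Tregs, with bars from the lowest to the highest library. Socs3, Socs1 and Cish sit highest, and Socs2 shows a wide gap between groups, at 64.1 in cKO against 174 in WT Tregs.

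The comparison of cKO with WT Tregs asked which genes differ between Tregs without and with miR-15/16, although sex and genotype are nearly confounded in it. Of the 8 members, 2 fell (Socs2 and Socs1), none rose, and 6 did not pass the test at an adjusted p under 0.05 in limma-trend. Over all 16241 genes 572 were called, 3.52%, with 1.48% lower. With sex as a term, 22 genes were called. The median log2 fold change of the members was -0.20, against 0.05 over all genes tested. The summed level of 8 B cell markers moved with the groups, at 986 to 1295 normalized counts in cKO and 567 to 972 in WT Tregs, with 0 of the 8 at 0 throughout either group. Every cKO library lay above every WT library in this sum, while the mean log2 level of the same markers overlapped (3.667 to 4.829 in cKO and 3.453 to 4.916 in WT Tregs). By mean in cKO and WT Tregs, Cd79b (623 and 280), Cd22 (435 and 325) and Pax5 (70.3 and 58.4) were higher in cKO. Cd79a (19.1 and 39.3), Ms4a1 (4.22 and 14.02) and Blnk (9.26 and 11.85) were lower in cKO. The part of B cell RNA in the results of this comparison was not tested.

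Socs2, best known as the STAT5-induced inhibitor of growth hormone signaling, fell most. It had 678, 605, 547, 649 and 576 normalized counts in the 5 cKO libraries, against 1549, 1381, 1685.5 and 2016 in the 4 WT libraries. Every cKO library lay below every WT library; the groups did not overlap for 2 of the 8 members (Socs2 and Socs1), against 8.54% of all genes tested. Means were 611 ± 53.2 in cKO and 1658 ± 269 in WT Tregs, and the fold change on the log2 scale was -1.43 (SE 0.12, 95% interval -1.68 to -1.17, adjusted p = 1.95e-06 by limma-trend), which placed Socs2 at rank 5 by p of all genes tested. In female libraries, WT replicate 3 had 1685.5, above all 5 cKO libraries, and with sex as a term the log2 fold change was -1.47 (adjusted p = 0.00527). The gene lies at chr10:95385362-95417180 on the minus strand.

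Socs1, which blocks JAK kinases directly and restrains interferon-gamma signaling in T cells, fell by a smaller step. It had 1731, 1896, 1920.4, 1783 and 1751 normalized counts in cKO Tregs, against 2222, 2239.8, 2142 and 2564 in WT Tregs. The groups did not overlap, though WT replicate 4 was the highest of all 9. The log2 fold change was -0.33 (SE 0.08, 95% interval -0.50 to -0.17, adjusted p = 0.0197). This call was lost without cKO replicate 1 (adjusted p = 0.0626), cKO replicate 5 (0.0517) or WT replicate 4 (0.0575), and with sex as a term (-0.24, adjusted p = 0.835). In female libraries, WT replicate 3 at 2142 stood above the 1731 to 1920.4 of cKO Tregs.

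Cish, whose product binds the interleukin-2 receptor and other STAT5-activating receptors, had 8308, 6669, 8636, 7484.5 and 7229.6 normalized counts in cKO Tregs, against 9834, 7742.5, 9672 and 8352 in WT Tregs. The groups overlapped, with cKO replicate 3 above the lower 2 WT libraries. The log2 fold change was -0.21 (SE 0.09, 95% interval -0.40 to -0.03), which did not pass the test (adjusted p = 0.224). Cish was the only member that overlapped other genes of the table, the antisense RNA gene Gm17041 and the pseudogene Gm17040 on the opposite strand, which averaged 27.5 and 10.6 normalized counts against 8297 for Cish; where reads are counted without strand, those of opposite genes cannot be told apart.

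Socs3, the inhibitor that binds the shared gp130 chain of the interleukin-6 receptor family, had 5484, 6489, 6609.8, 7373.5 and 7379 normalized counts in cKO Tregs, against 8949, 9489.7, 7729 and 6626 in WT Tregs. Only WT replicate 4, the library with the low handling gene level, fell within the cKO range. The log2 fold change was -0.29 (SE 0.11, adjusted p = 0.166) with all libraries and -0.39 (adjusted p = 0.0413) without WT replicate 4. With the handling gene level as a term it was -0.25 (adjusted p = 0.0637). Of 26 alternatives, only the limma-trend fit without WT replicate 4 called Socs3, and the adjusted p of the others reached 0.954.

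Socs4, whose product acts on epidermal growth factor receptor signaling, had 2307, 2346, 2197, 2101 and 2076.5 normalized counts in cKO Tregs, against 2191, 1937, 2549.5 and 3619.6 in WT Tregs. WT replicate 4 was again apart, this time above, and it was higher than every other library of the 14. The log2 fold change was -0.18 (SE 0.13, adjusted p = 0.521), and -0.0057 without WT replicate 4 (adjusted p = 0.985).

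Socs5, a close relative of Socs4, had the highest estimate of the members in cKO Tregs. Of the 3 members with a seed match, Socs1 fell, while Socs5 and Socs6 did not pass the test. Socs5 had 1319, 1245, 1517, 1161 and 1564 normalized counts in cKO Tregs, against 921.5, 978.5, 1170.1 and 986 in WT Tregs. The groups overlapped by a single pair, cKO replicate 4 below WT replicate 3. The log2 fold change was 0.42 (SE 0.12, 95% interval 0.17 to 0.67) and did not pass the test (adjusted p = 0.0609). DESeq2 on the recovered reads called it (adjusted p = 0.0143), as did limma-trend without cKO replicate 4 (0.0477) or WT replicate 3 (0.048), while with sex as a term it was 0.21 (adjusted p = 0.973).

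Socs6 and Socs7, members known from insulin receptor signaling, did not pass the test. Socs6 had 455 to 608 normalized counts in cKO and 442 to 567.5 in WT Tregs, with a log2 fold change of 0.08 (SE 0.17, adjusted p = 0.874). Socs7 had 1799 to 2266 in cKO and 1648.5 to 1827 in WT Tregs, with a log2 fold change of 0.18 (SE 0.09, adjusted p = 0.331).

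**Figure D2:**
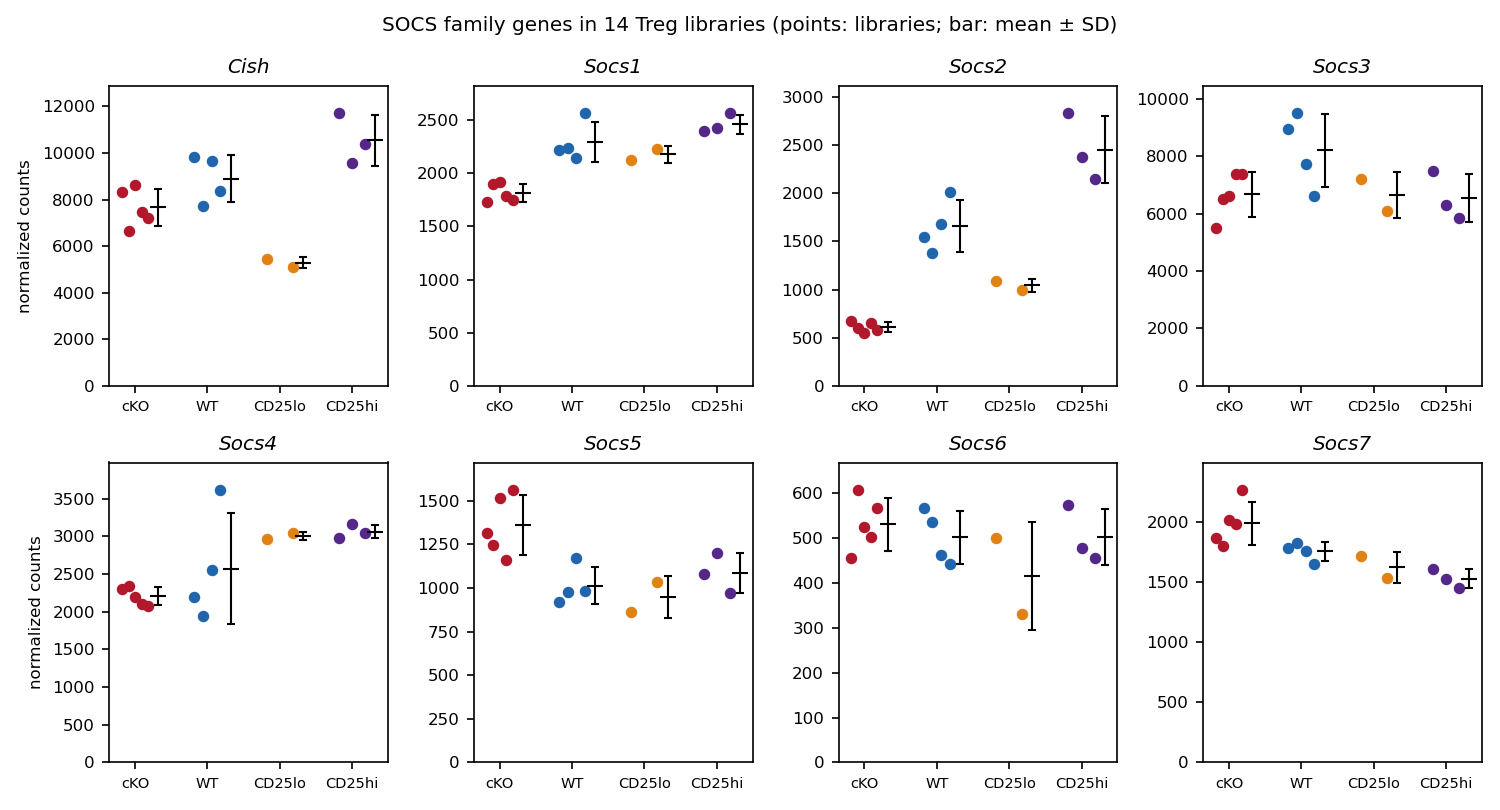
Normalized counts of each SOCS gene (linear axes from 0) in the 5 cKO, 4 WT, 2 CD25lo and 3 CD25hi libraries, one point a library, with the group mean ± SD in black. Socs2 separates cKO from WT and CD25lo from CD25hi, Cish separates CD25lo from CD25hi, and Socs4 shows WT replicate 4 at 3619.6.

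The comparison of CD25lo with CD25hi Tregs asked which genes differ between Tregs of low and high CD25 without any deletion. Again 2 of the 8 members fell, here Cish and Socs2, none rose and 6 did not pass the test, against 263 genes called, 1.62%, with 1.01% lower. The median log2 fold change was -0.19 for the members and 0 for all genes tested. CD25lo has 2 libraries, so its spread is largely borrowed from the other groups.

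Cish had 5467 and 5118 normalized counts in CD25lo Tregs, against 11709, 9560.4 and 10381 in CD25hi Tregs. Both CD25lo libraries lay below all others of the 14. The means were 5293 ± 247 in CD25lo and 10550.2 ± 1084 in CD25hi Tregs, a log2 fold change of -0.99 (SE 0.12, 95% interval -1.24 to -0.74, adjusted p = 3.34e-04).

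Socs2 had 1092 and 997 normalized counts in CD25lo Tregs, against 2829.6, 2371 and 2146.5 in CD25hi Tregs. The groups did not overlap, and the 4 bulk WT libraries, at 1381 to 2016, lay between them. The log2 fold change was -1.22 (SE 0.17, 95% interval -1.57 to -0.87, adjusted p = 8.82e-04). Both CD25lo libraries remained above all 5 cKO libraries, a side by side reading across the 2 comparisons that was not tested, although Il2ra averaged 15512 in cKO and 14854 in CD25lo Tregs.

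Socs1 had 2122 and 2232.5 normalized counts in CD25lo Tregs, against 2393, 2425 and 2563 in CD25hi Tregs. The groups did not overlap, as for 24.5% of all genes tested in this comparison of 2 with 3 libraries, and the log2 fold change of -0.18 (SE 0.11, adjusted p = 0.493) did not pass the test. The other 5 members overlapped between the groups. Their log2 fold changes were 0.03 for Socs3, -0.03 for Socs4, -0.20 for Socs5, -0.30 for Socs6 and 0.08 for Socs7, with adjusted p of 0.619 to 0.984. The signs of Socs3, Socs4 and Socs6 turned under at least 1 alternative. Socs6 differed most within a group, at 500.1 and 330.0 in the CD25lo libraries.

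**Figure D3:**
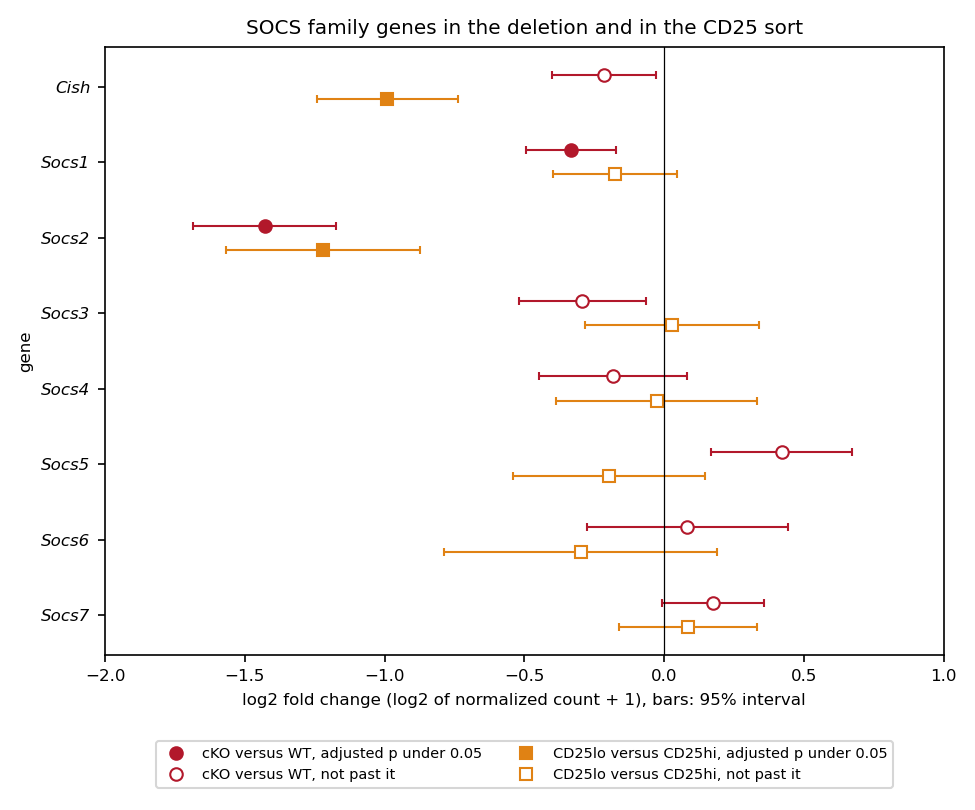
Log2 fold changes (on log2 of normalized count + 1) of the 8 SOCS genes for cKO against WT (circles) and CD25lo against CD25hi (squares), with 95% intervals; filled symbols passed an adjusted p under 0.05. Socs2 is low in both comparisons, at -1.43 and -1.22, and Cish at -0.99 in the sort but -0.21 in the deletion.

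The deletion and the sort share no library, so their fold changes could be tested against each other as (cKO - WT) - (CD25lo - CD25hi). The test treats all libraries as separate samples, although the WT and CD25-sorted libraries may have come from the same mice. Of the 8 members, only Cish passed this test in limma-trend, against 168 genes called, 1.03%. Its difference was 0.78 on the log2 scale (SE 0.15, 95% interval 0.46 to 1.09, adjusted p = 0.0179): Cish was 0.99 lower with the sort and 0.21 lower with the deletion. The call was lost without CD25lo replicate 2 (0.73, adjusted p = 0.0857) and with sex as a term (0.65, adjusted p = 0.266).
For Socs2 the difference was -0.21 (95% interval -0.64 to 0.22, adjusted p = 0.704), an interval that covers 0 and differences of either sign. Socs5, with 0.62 (95% interval 0.19 to 1.04, adjusted p = 0.161), did not pass the test over all genes. The remaining members had differences of -0.32 to 0.38, with adjusted p of 0.465 to 0.835.

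Across the 14 libraries the members followed different companions. Likeness was Pearson's r on log2(normalized count + 1) among 10299 other genes with a mean of at least 100, and since the libraries fall into 4 groups it describes group differences as well as variation within a group. The genes most like Socs2 were Ecm1 (r = 0.973), Myc (0.956) and Mbnl3 (0.954), but after group means were removed these were 0.181, 0.426 and 0.292. Cish was most like Ccr6 (0.935), Ndrg1 (0.915) and Ppm1l (0.903), and Socs1 most like Magi3 (0.972), Slc35g1 (0.945) and Pbx2 (0.917).
For Socs3 the nearest genes were Brd2 (0.916) and the transcription factor genes Irf1 (0.903) and Jun (0.897), Jun being 1 of the handling genes, with 0.88, 0.84 and 0.834 within groups. Those of Socs4 were Strn, Atp13a1 and Ifi47 (0.965, 0.955 and 0.951), with 0.931, 0.949 and 0.972 within groups, WT replicate 4 included. Those of Socs5 were Rbm15, Bloc1s6 and Bicd1 (0.862, 0.851 and 0.846), those of Socs6 were Srbd1, Riok1 and Slc25a36 (0.889, 0.861 and 0.844), and those of Socs7 included Ehd4 and Mmp14 (0.928 and 0.927). Among the members themselves, Socs1 and Socs2 were most alike (0.908, and 0.077 within groups), and Socs1 and Socs7 most opposed (-0.835, and -0.512 within groups).

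**Figure D4:**
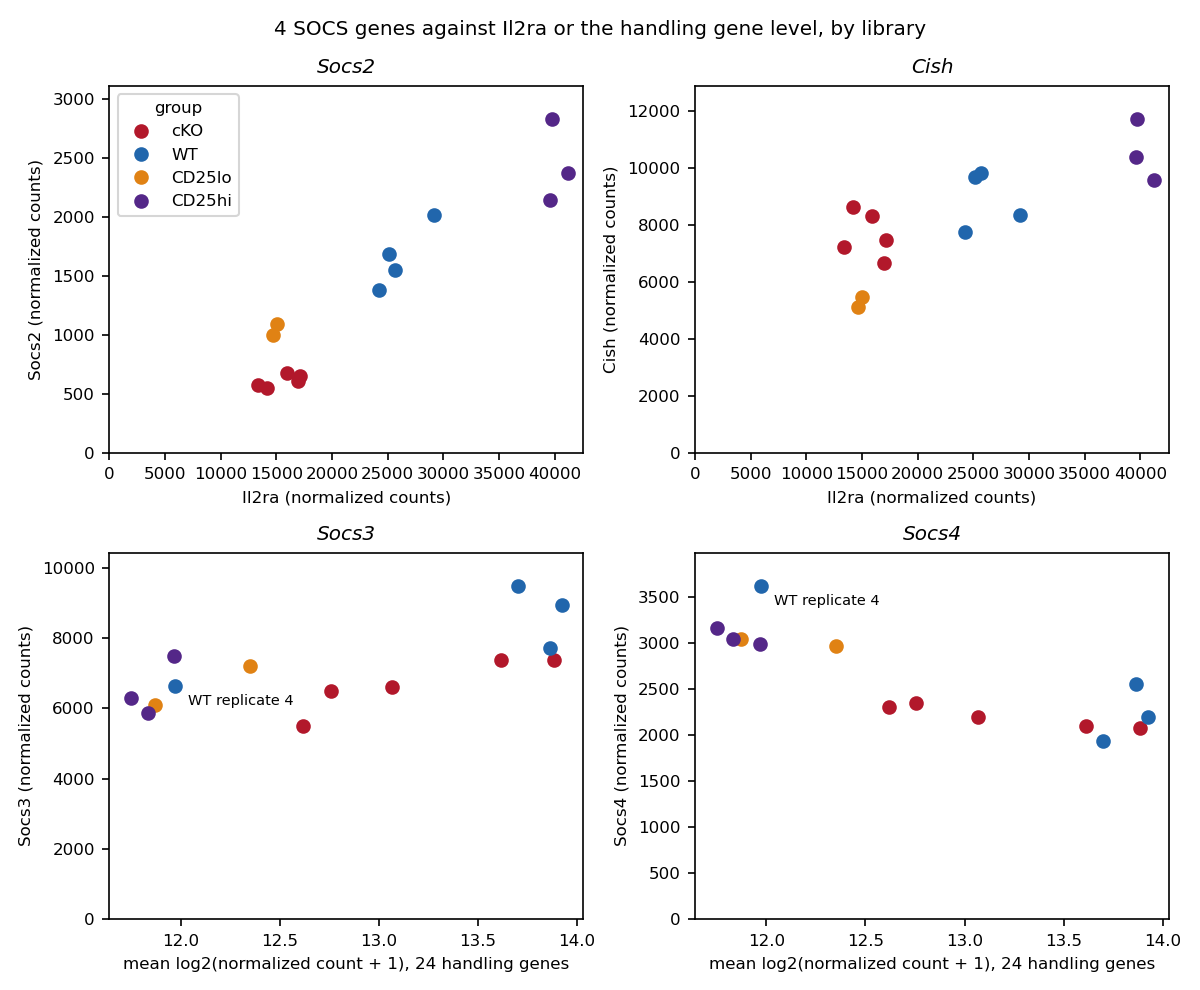
Normalized counts of Socs2 and Cish against Il2ra (upper panels) and of Socs3 and Socs4 against the handling level of 24 genes (lower panels), one point for each of 14 libraries. Socs2 is 547 to 678 in cKO and 997 to 1092 in CD25lo Tregs, while Cish is 6669 to 8636 in cKO and 5118 to 5467 in CD25lo Tregs. Il2ra is alike in these groups, but they also differ in the sex read from the libraries and in handling level. This reading across groups was not tested. WT replicate 4 sits with the CD25-sorted libraries on the handling axis at 11.97.

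The members differed in how they followed the handling level. Over the 14 libraries, which share their groups, Pearson's r with that level was 0.772 for Socs7, 0.685 for Socs3, 0.461 for Socs6, 0.265 for Socs5, 0.021 for Cish, -0.432 for Socs2, -0.557 for Socs1 and -0.854 for Socs4. Among bulk libraries, WT replicate 4 had the lowest handling level (11.97) with 6626 for Socs3 and 3619.6 for Socs4, whereas the other 3 WT libraries had 7729 to 9489.7 for Socs3 and 1937 to 2549.5 for Socs4. The part of handling in these values was not tested beyond the fits with its level as a term.

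The other genes of the pathway were read from fixed lists, each as counts of calls in limma-trend. Of 24 cytokine receptor chains tested, 3 rose and 2 fell in cKO Tregs (median log2 fold change -0.03). Il7r, the interleukin-7 receptor chain, rose (log2 fold change 1.02, adjusted p = 3.29e-05), as did Il10ra (0.48, adjusted p = 0.00603) and Ifngr1 (0.54, adjusted p = 0.00962). Il2ra (-0.75, adjusted p = 1.51e-05) and Il6ra (-0.32, adjusted p = 0.0489) fell, the last only just past the threshold; without WT replicate 4, or with edgeR, 1 chain fell. In CD25lo Tregs 1 chain rose and 2 fell (median -0.06): Il9r rose by 1.19 (adjusted p = 0.0437, not called by edgeR), Il2rb, the signaling chain to which CIS binds, fell by 0.95 (adjusted p = 1.03e-06), and Il2ra fell by 1.43, the gene of the sort itself.

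Of 11 JAK kinases and STAT factors, Stat5b alone was called, at 0.27 (adjusted p = 0.00647) in cKO Tregs, and none in CD25lo Tregs. A further list held 17 other signaling inhibitors, not all of them specific to JAK-STAT signaling. In cKO Tregs the adaptor gene Sla2 rose (0.62, adjusted p = 1.98e-04) and the phosphatase gene Dusp2 fell (-0.60, adjusted p = 0.045). Dusp2 is also 1 of the 24 handling genes and the only 1 of those called. None of the 17 inhibitors was called in CD25lo Tregs. In CD25lo Tregs, 4 of the JAK and STAT genes and 2 of the inhibitors had an unadjusted p under 0.05 in limma-trend. Over all 16241 genes tested, 2185 in CD25lo and 2619 in cKO Tregs had such a p. For the 2 lists in CD25lo Tregs, edgeR called 0 of either and DESeq2 called 1 and 2. Median log2 fold changes were 0.03 in cKO and 0.04 in CD25lo Tregs for the JAK and STAT genes, and -0.01 and 0.11 for the inhibitors. With sex as a term in cKO Tregs, the 3 receptor chains that rose lost their calls, 1 chain fell and 0 genes of the other pair of lists were called, and without WT replicate 4, 7 of the 24 handling genes fell.
Limma-trend and edgeR called 0 of 10 SOCS-box ligase partners in cKO Tregs, where 3 had an unadjusted p under 0.05 in limma-trend and DESeq2 called 1, and none of the 3 tools called any in CD25lo Tregs, where 0 had such a p. Of 13 other SOCS-box proteins, none of these tools called any in either comparison; 0 had an unadjusted p under 0.05 in cKO Tregs and 2 in CD25lo Tregs. Medians were -0.09 in cKO and -0.02 in CD25lo Tregs for the partners, and 0.09 and 0.23 for the other SOCS-box proteins.

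STAT5-induced genes are the group to which Cish and Socs2 belong. Of 25 others tested, 1 rose and 5 fell in cKO Tregs (median -0.05), and none rose and 9 fell in CD25lo Tregs (median -0.44). Il2ra, on whose product the CD25 groups were sorted, is among the 25 and fell in both; without it, 1 rose and 4 fell of 24 in cKO Tregs (median -0.04), and 0 rose and 8 fell in CD25lo Tregs (median -0.44). With sex as a term, 0 of the 25 rose and 3 fell in cKO Tregs. With the handling level as a term 4 rose and 5 fell there, and with DESeq2 2 rose and 5 fell. In CD25lo Tregs 13 fell without WT replicate 4 or with the handling level as a term. Over all genes tested, limma-trend called 3.52% in cKO Tregs, with 1.48% lower, and 1.62% in CD25lo Tregs, with 1.01% lower. Ecm1, an extracellular matrix protein gene, fell by 1.29 in cKO (adjusted p = 1.98e-07) and by 0.95 in CD25lo Tregs (adjusted p = 3.74e-04). Myc, the growth regulator, fell by 0.54 (adjusted p = 7.58e-04) and by 0.57 (adjusted p = 0.0116). Ccnd3, a G1 cyclin gene, was the one that rose in cKO Tregs (0.29, adjusted p = 0.0355).

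Of 12 STAT3-induced genes, to which Socs3 is related, Fgl2 rose (1.08, adjusted p = 7.27e-04) and Il6ra fell in cKO Tregs. In CD25lo Tregs limma-trend and edgeR called none and DESeq2 called 1, and 4 had an unadjusted p under 0.05. The medians were 0.07 in cKO and 0.02 in CD25lo Tregs, near those of all genes.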

How the data were processed

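Tregs were sorted by the authors, RNA was sequenced from 1 end, and reads were aligned with STAR 2.7.2b to GRCm38 and normalized with DESeq2 1.24.0. The deposited values used here are normalized counts, a signal made by the authors from the reads of each gene divided by a size factor; these came out as whole reads for 99.996% to 100% of values within a tolerance of 0.055. Stabilized log2 values, which the authors deposited beside them, and the authors' own comparisons (fold changes and p values) were not used. Main tests were limma-trend 3.58.1 on log2(normalized count + 1) with 4 group means over 14 libraries, for genes that reached 10 normalized counts in 2 libraries, two-sided, Benjamini-Hochberg adjusted over all 16241 genes, called under 0.05. A fold change on this scale understates that of low genes. Alternatives were edgeR 4.0.16, DESeq2 1.42.0 and limma-voom on the recovered reads, other filters and pseudocounts, replicate number, sex or handling level as terms, and each library left out. The limma fit was tested on simulated data.

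Exon and 3′ UTR models came from GENCODE vM21 (GRCm38). Named genes were the 8 members, up to 3 called genes per direction in each list and comparison by adjusted p, Il2ra, Foxp3 and the 3 genes most like each member; Dleu2 and the miRNA hairpin genes were added to check the deletion. A gene list and a gene like Socs7 that this rule names are not reported here. The members and lists were chosen with earlier results of these data known. The study calls cKO and WT libraries biological replicates, though it counts more of each group than are present here. No source used here says whether CD25lo, CD25hi and WT libraries came from separate mice. Their p-values therefore measure only the spread between these samples, which may be technical. Depth was 30055573 to 35226685 reads in genes, and the spread between libraries includes counting error.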

Additional observations from a re-analysis of the deposited data

Results flagged for a closer look

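The handling level (average log2 value of 24 immediate early and stress genes) was 11.97 in WT replicate 4, far from the 13.70 to 13.92 of the other 3 WT libraries. Over the 8 members and this level, 18 groups of 4 or 5 libraries were examined for a single distant library and 1 stood out, where chance gives about 1 in 20. No value of a SOCS member stood out by itself, although WT replicate 4 was the WT library farthest from its neighbours for Socs1, Socs2, Socs3, Socs4 and Socs7.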

How the results depend on the processing

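Of 616 refits of single members over the 24 results, 596 kept the direction and the call. This count does not measure robustness, because many refits could not change the direction. Leaving out a library of 1 comparison leaves the fold change of the other comparison as it was, and so do other filters. Most of the 24 results were also uncalled in the main fit. Socs2 was called in every alternative of both comparisons, from -1.51 to -1.33 in cKO and from -1.31 to -1.11 in CD25lo Tregs, as was Cish in CD25lo Tregs. Counts of genes called in cKO Tregs were 1049 with DESeq2, 886 with the handling level, 290 with the replicate block and 22 with sex, against 572, and 349 to 666 with a library left out (349 without cKO replicate 1, 356 without cKO replicate 3). In CD25lo Tregs they were 806 with DESeq2, 465 with the handling level, 160 with only the groups compared and 105 with the replicate block, against 263, and 91 to 377 with a library left out (91 without CD25lo replicate 2, 142 without CD25hi replicate 3). Members called in cKO Tregs were 1 with the replicate block (Socs1 lost, adjusted p = 0.0975) and 1 with sex, 3 with DESeq2, with a filter of 100 (Socs5, adjusted p = 0.047) or with the handling level (Socs5, 0.0468), and 1 to 3 with a library left out. Members called in CD25lo Tregs were 2 throughout. STAT5-induced genes that fell in CD25lo Tregs were 5 of 25 with the replicate block, against 9. The test of the difference called 0 members with sex, and 0 to 1 with a library left out. The sign turned for Socs3 in CD25lo Tregs (-0.0093 with the replicate block, -0.0357 with the handling level, -0.0942 to 0.1496 with a library left out), for Socs4 (0.0482 with the handling level), for Socs6 (-0.5976 to 0.0006 with a library left out) and for the difference of Socs4 (-0.2789 to 0.0216 with a library left out). The cause of these changes was not tested. With the longest transcript 4 of 8 members kept their rank per kilobase in cKO Tregs; levels there were 625 for Socs1, 144 for Socs2 and 88.1 for Socs6. The whole exon union, chosen after seeing the data, gave 625 for Socs1.

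Same-numbered cKO and WT libraries correlated at -0.32 to -0.102 in their deviations from the group means. Same-numbered CD25lo and CD25hi libraries correlated at -0.062 and 0.025. These values cannot decide whether replicate numbers pair the samples. In so small a group the CD25lo deviations mirror each other, at 0.025 and -0.025 against CD25hi replicate 1. Among cKO and WT pairs, the lowest and highest values (-0.329 and 0.279) both involved WT replicate 4, the library with the low handling level. Leaving out a CD25lo library assumes that the remaining one varies like the other groups. Sex rests on WT replicate 3 alone within the bulk groups.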
